A study of Mus musculus with 4 samples.

Results

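Small leucine-rich proteoglycans (SLRPs) are secreted matrix proteins built from short leucine-rich repeats, many of which carry chondroitin, dermatan or keratan sulfate chains. The 9 members examined here are Dcn (decorin), Bgn (biglycan), Aspn (asporin), Ecm2, Lum (lumican), Prelp, Omd (osteomodulin), Ogn (osteoglycin) and Podn (podocan). They were chosen by gene name from the 55387 rows listed for each library, and every member had a row. By convention decorin, biglycan and asporin form class I, to which Ecm2 is related. Lumican, Prelp and osteomodulin belong to class II, osteoglycin to class III and podocan to class V.

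SLRPs bind fibrillar collagen through the concave face of the repeats and govern how fibrils assemble and how thick they grow. Several of them also bind growth factors such as TGF-beta, or act on receptors at the cell surface. In adipose tissue they are made mainly by the fibroblasts and progenitor cells of the stroma, and much less by lipid-filled adipocytes.

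Brown fat RNA was sequenced from male mice aged 15 weeks and housed at 22 to 24 °C, 2 of them Sox4f/f and 2 Sox4-MKO littermates, with 1 library per mouse. The labels give the genotype of the controls as WT, whereas the methods describe them as Sox4f/f, which carry the floxed Sox4 alleles without Cre. In Sox4-MKO mice, Cre under the control of Myf5 removes Sox4 in the lineage that yields brown adipocytes and skeletal muscle. Fibroblasts, macrophages and endothelial cells of the depot that do not descend from Myf5-expressing cells are not targeted, and the tissue was sequenced whole, although the labels name adipocytes as the cell type.

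The level of a gene is given in FPKM, fragments scaled to the length of the transcript and to the mapped fragments of the library, so that levels of different genes can be compared within a library. A gene was tested when its averaged FPKM was above 1 in at least one genotype, and it was called at an unadjusted p under 0.05 (limma, two-sided), the threshold of the study. Of 12877 tested genes, 1024 (7.95%) were called higher and 1066 (8.28%) lower in the libraries labelled Sox4-MKO, and 0 passed after Benjamini-Hochberg adjustment, with a smallest adjusted p of 0.191. The calls depended on single libraries, with 445 genes higher and 404 lower without Sox4f/f mouse 1, 567 and 503 without Sox4f/f mouse 2, and 1559 and 835 without Sox4-MKO mouse 2. Depth was estimated at 12200000 to 16600000 fragments per library. With 2 mice against 2, an exact permutation test of a single value cannot give a p below 0.333.

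Sox4 itself was low. Its level was 1.98 and 1.06 FPKM in Sox4f/f and 0.981 and 3.06 FPKM under the Sox4-MKO label. The groups overlapped and the level was not lower under the knockout label (log2 fold change 0.20 ± 0.43 SE, adjusted p = 0.843, limma). All directions below therefore follow the labels. By western blot, in younger mice than these, the paper reports strongly reduced SOX4 protein in Sox4-MKO brown fat. Of 7 brown adipocyte markers, all were detected in every library, Ucp1 at 733 to 1935 FPKM, and 3 of the 7 were called lower.

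Sets of members lie side by side in the genome (GRCm38, GENCODE M21). Ecm2 (chr13:49504810-49532789), Aspn (chr13:49544443-49567565), Omd (chr13:49582462-49592822) and Ogn (chr13:49608046-49624501) follow one another on the plus strand within 119.7 kb, with 11.7, 14.9 and 15.2 kb between them. Dcn (chr10:97479609-97518143) and Lum (chr10:97565128-97572703) are separated by 47.0 kb on the plus strand and are followed by Kera and Epyc. Prelp (chr1:133910304-133921414, minus strand) lies 2.3 kb from Optc, Bgn is on the X chromosome (chrX:73483602-73495933, plus strand) and Podn on chromosome 4 (chr4:108014791-108096445, minus strand).

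The promoters of Ecm2, Aspn and Ogn are shown because Aspn and Ogn were called higher in the libraries labelled Sox4-MKO whereas their neighbour Ecm2 was not, and that of Prelp because it was the only member with both of these libraries below both controls. Each runs 5′ to 3′ from 250 bases before to 50 bases after the start site (RefSeq, GRCm38.p6). Capitals mark matches of ACAAAG, the core of sites bound by SOX proteins, or of TCCCNNGGG, the core bound by EBF proteins, searched on both strands.
Ecm2 (chr13:49504560-49504859, plus strand): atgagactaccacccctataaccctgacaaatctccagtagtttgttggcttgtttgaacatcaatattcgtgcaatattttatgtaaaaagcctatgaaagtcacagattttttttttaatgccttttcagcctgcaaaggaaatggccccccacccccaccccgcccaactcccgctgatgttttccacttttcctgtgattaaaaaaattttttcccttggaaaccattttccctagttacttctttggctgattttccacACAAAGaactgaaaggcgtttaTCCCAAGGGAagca
Aspn (chr13:49544193-49544492, plus strand): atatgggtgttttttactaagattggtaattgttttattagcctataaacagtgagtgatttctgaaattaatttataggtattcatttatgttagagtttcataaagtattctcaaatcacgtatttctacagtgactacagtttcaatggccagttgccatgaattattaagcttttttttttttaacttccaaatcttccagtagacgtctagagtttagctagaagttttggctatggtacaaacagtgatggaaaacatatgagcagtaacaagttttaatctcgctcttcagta
Ogn (chr13:49607765-49608064, plus strand): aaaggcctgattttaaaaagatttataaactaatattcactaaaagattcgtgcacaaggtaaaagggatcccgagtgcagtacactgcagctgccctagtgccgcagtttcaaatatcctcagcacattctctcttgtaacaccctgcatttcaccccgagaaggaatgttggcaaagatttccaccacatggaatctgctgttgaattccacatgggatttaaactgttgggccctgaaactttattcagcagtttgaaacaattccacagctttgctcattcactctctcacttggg
Prelp (chr1:133921352-133921651, minus strand): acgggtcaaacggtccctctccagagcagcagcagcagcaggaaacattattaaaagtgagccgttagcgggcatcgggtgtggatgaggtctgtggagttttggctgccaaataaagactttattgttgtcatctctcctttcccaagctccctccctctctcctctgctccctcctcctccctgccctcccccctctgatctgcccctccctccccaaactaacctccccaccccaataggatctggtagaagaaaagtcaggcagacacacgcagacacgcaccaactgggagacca
Of the 9 members, 7 had a promoter entry, Bgn, Aspn, Ecm2, Prelp, Omd, Ogn and Podn, the last with 2 start sites. Ecm2 alone among them held ACAAAG, 14 bases after the start site, and TCCCNNGGG, matched on the plus strand from 36 and on the minus strand from 37 bases after the start site, in 1 overlapping stretch. The 2 motifs did not overlap there. Among all 32851 promoters of this length, 18.7% held ACAAAG and 6.56% TCCCNNGGG. The SOX4 site that the study mutated at Ebf2, AACAAGT, differs from ACAAAG and was not searched for. The Aspn stretch shown contains AACAAGT, unmarked, near its 3′ end, and the share of all promoters with it was not counted. An absent mark therefore does not mean that a SOX4 site is absent. The promoters also differed in base composition, with a GC content of 31.0% for Aspn, 42.3% for Ogn, 41.0% for Ecm2 and 55.3% for Prelp, beside a median of 52.7% over all promoters.

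Decorin was the most abundant SLRP mRNA in all 4 libraries, followed by Prelp and then Bgn. Behind them Lum, Ogn, Aspn and Podn changed places between libraries, and their levels lay close together. In Sox4f/f mouse 1, Podn, Ogn and Aspn had 12.4, 12.1 and 11.5 FPKM, which gives no order beyond the spread between mice. In the libraries labelled Sox4-MKO, Lum was just under Bgn in mouse 1 (45.6 against 45.9 FPKM) and just under Ogn in mouse 2 (34.8 against 35.9 FPKM). Ecm2 was eighth and Omd last in every library. By mean FPKM over the genotypes, decorin ranked 390th and Prelp 675th of the tested genes.

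**Figure D1:**
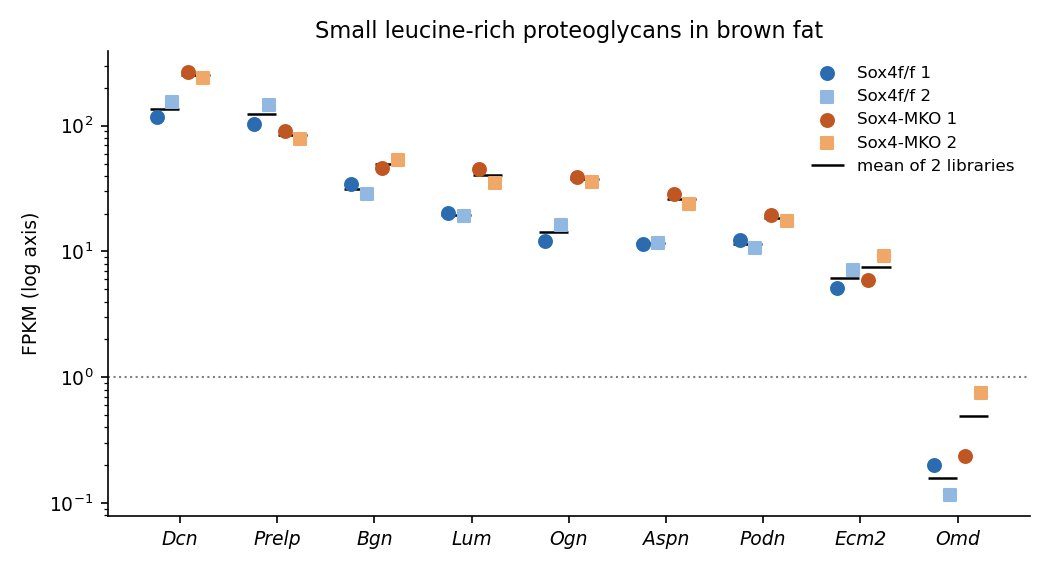
FPKM of the 9 proteoglycan genes (log axis) in each library, with the mean of both mice of a genotype as a line and a dotted line at 1 FPKM, the limit for testing. In Dcn, Bgn, Lum, Ogn, Aspn and Podn both orange points sit above both blue ones, in Prelp both sit below, and in Ecm2 they interleave. Omd stays under 1 FPKM, where both orange points also sit above both blue ones, that of mouse 1 only narrowly.

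Of the 8 members tested, 6 were called higher in the libraries labelled Sox4-MKO (Ogn, Aspn, Lum, Dcn, Bgn and Podn) and 0 lower, beside 7.95% and 8.28% of all tested genes (16.2% in either direction). The same 6 lay above Sox4f/f without overlap, as 21.7% of all tested genes did, and 1 (Prelp) lay below, as 29.6% did (51.3% in either direction). The median log2 fold change of the 8 tested members was 0.77, against -0.05 over all tested genes. No member passed after adjustment, and their smallest adjusted p was 0.191 (limma, Benjamini-Hochberg). In bulk tissue, more cells that make a transcript and more transcript per cell cannot be told apart.

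**Figure D2:**
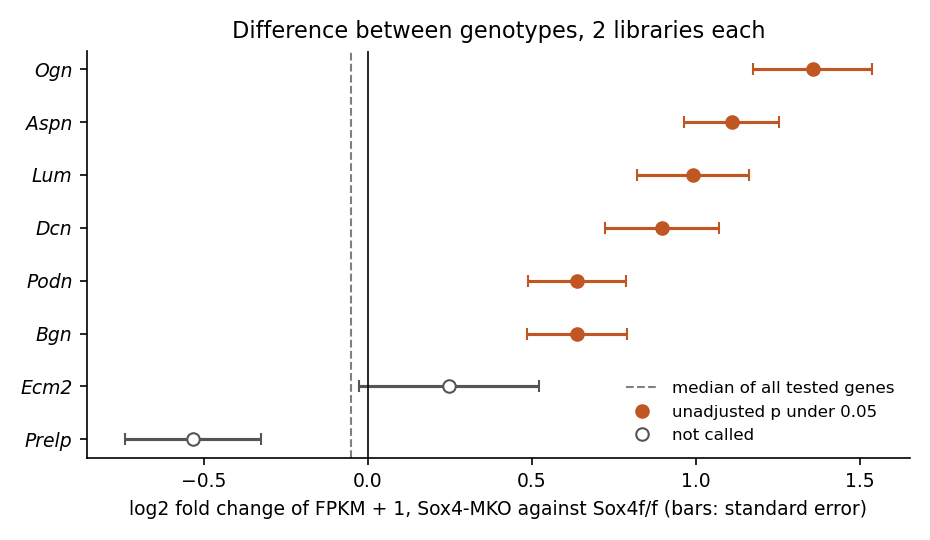
Log2 fold change of FPKM + 1 for the 8 tested members, libraries labelled Sox4-MKO against Sox4f/f, with standard errors as bars, and the median of all tested genes (-0.05) as a dashed line. Ogn is farthest to the right at 1.36 and Prelp is alone on the left at -0.53.

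Of the class I genes, Dcn, Bgn and Aspn were called higher and the related Ecm2 was not. Decorin, which binds collagen fibrils and TGF-beta, had 118 and 155 FPKM in Sox4f/f and 267 and 239 FPKM under the Sox4-MKO label. The groups were clear of each other, with the lowest library labelled Sox4-MKO well above the highest control. The means were 137 ± 26.5 and 253 ± 20.0 FPKM (SD, n = 2 each), and the log2 fold change was 0.90 ± 0.17 (SE, unadjusted p = 0.00461, adjusted p = 0.202, limma). That exceeded the log2 fold change of 93.9% of the tested genes. Without moderation of the variance across genes, decorin was no longer called (limma, unadjusted p = 0.0522).

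Biglycan, the close relative of decorin that can also act on Toll-like receptors, had 34.2 and 28.7 FPKM in Sox4f/f and 45.9 and 52.9 FPKM under the Sox4-MKO label. The difference was smaller than for decorin, though the groups did not overlap. The log2 fold change was 0.64 ± 0.15 (SE, unadjusted p = 0.0102, adjusted p = 0.214, limma). The call was lost without Sox4f/f mouse 2 (log2 fold change 0.52, unadjusted p = 0.0669, limma) and without moderation of the variance (unadjusted p = 0.0566, limma).

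Asporin, which lacks the glycosaminoglycan chain of its class and competes with decorin for collagen, had 11.5 and 11.7 FPKM in Sox4f/f and 28.5 and 24.0 FPKM under the Sox4-MKO label. The controls were nearly identical and both other libraries were more than their own spread above them. Asporin averaged 2.27 times the control level (log2 fold change 1.11 ± 0.15 SE, unadjusted p = 0.000875, adjusted p = 0.191, limma). Ecm2, its upstream neighbour on chromosome 13, had 5.14 and 7.18 FPKM in Sox4f/f and 5.89 and 9.27 FPKM under the Sox4-MKO label. These values interleaved, and the log2 fold change of 0.25 ± 0.27 (SE, adjusted p = 0.675, limma) was within its error. Without Sox4-MKO mouse 2 it was -0.04.

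In class II, lumican and Prelp had log2 fold changes of opposite sign, and of these lumican alone was called. Lumican, a keratan sulfate proteoglycan that limits fibril thickness in the cornea and skin, had 20.0 and 19.0 FPKM in Sox4f/f and 45.6 and 34.8 FPKM under the Sox4-MKO label. Both of the latter were clear of the controls, although they differed from each other by more than the controls did. The log2 fold change was 0.99 ± 0.17 (SE, unadjusted p = 0.00282, adjusted p = 0.196, limma).

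Prelp, which binds heparan sulfate as well as collagen and is found near basement membranes, had 103 and 146 FPKM in Sox4f/f and 91.2 and 78.4 FPKM under the Sox4-MKO label. It was the only member with both of these libraries below both controls, but Sox4f/f mouse 1 was nearer to them than to Sox4f/f mouse 2. The means were 125 ± 30.6 and 84.8 ± 9.04 FPKM (SD, n = 2 each), and the log2 fold change was -0.53 ± 0.21 (SE, unadjusted p = 0.0541, adjusted p = 0.315, limma). Prelp was therefore not called. Of the tested genes, 6.32% had a lower log2 fold change. It was called lower when the libraries were scaled to a common median (-0.56, unadjusted p = 0.0446, limma) and without Sox4f/f mouse 1 (-0.78, unadjusted p = 0.0224, limma). An antisense transcript, Gm15851, shares 350 bases (9.68%) of the Prelp exons and had 1.51 to 2.25 FPKM, far below the level of Prelp.

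Osteomodulin, a keratan sulfate proteoglycan of bone and teeth, was barely detected and was not tested. Its level was 0.202 and 0.117 FPKM in Sox4f/f and 0.238 and 0.748 FPKM under the Sox4-MKO label, which corresponds to roughly 6, 3, 6 and 27 fragments. The higher mean under the Sox4-MKO label came from mouse 2.

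Osteoglycin, the class III member, which acts on collagen fibril growth, had the largest log2 fold change of the tested members. It had 12.1 and 16.3 FPKM in Sox4f/f and 39.2 and 35.9 FPKM under the Sox4-MKO label, with a wide gap between the groups. The means were 14.2 ± 2.98 and 37.5 ± 2.31 FPKM (SD, n = 2 each), a ratio of 2.65. The log2 fold change was 1.36 ± 0.18 (SE, unadjusted p = 0.000953, adjusted p = 0.191, limma), above that of 96.7% of the tested genes. Podocan, the class V member, which has been linked to the control of smooth muscle growth, had 12.4 and 10.6 FPKM in Sox4f/f and 19.4 and 17.5 FPKM under the Sox4-MKO label. Its groups did not overlap, and the log2 fold change was 0.64 ± 0.15 (SE, unadjusted p = 0.00925, adjusted p = 0.214, limma). Without Sox4f/f mouse 2 the call was lost (0.54, unadjusted p = 0.0629, limma).

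Calls were not shared by all neighbours in the genome, though differences between neighbours were not tested. On chromosome 13, Aspn and Ogn were called higher, Ecm2 was not, and Omd between them stayed under the limit for testing. All 4 lie inside the body of Cenpp, a centromere gene on the opposite strand, which had 0.0671 to 0.651 FPKM and shares 7 exonic bases with Aspn and 0 with the others. On chromosome 10, Dcn and Lum were both called higher, while Kera beyond them was listed at 0 in 3 libraries and at 0.0280 FPKM in Sox4-MKO mouse 2. Epyc was listed at 0 in 3 libraries and at 0.241 FPKM in Sox4-MKO mouse 1. On chromosome 1, Optc next to Prelp had 0.123 to 0.353 FPKM. Podn overlaps the body of Scp2, a lipid transfer gene on the same strand with 375 to 479 FPKM, but shares 0 exonic bases with it.

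**Figure D3:**
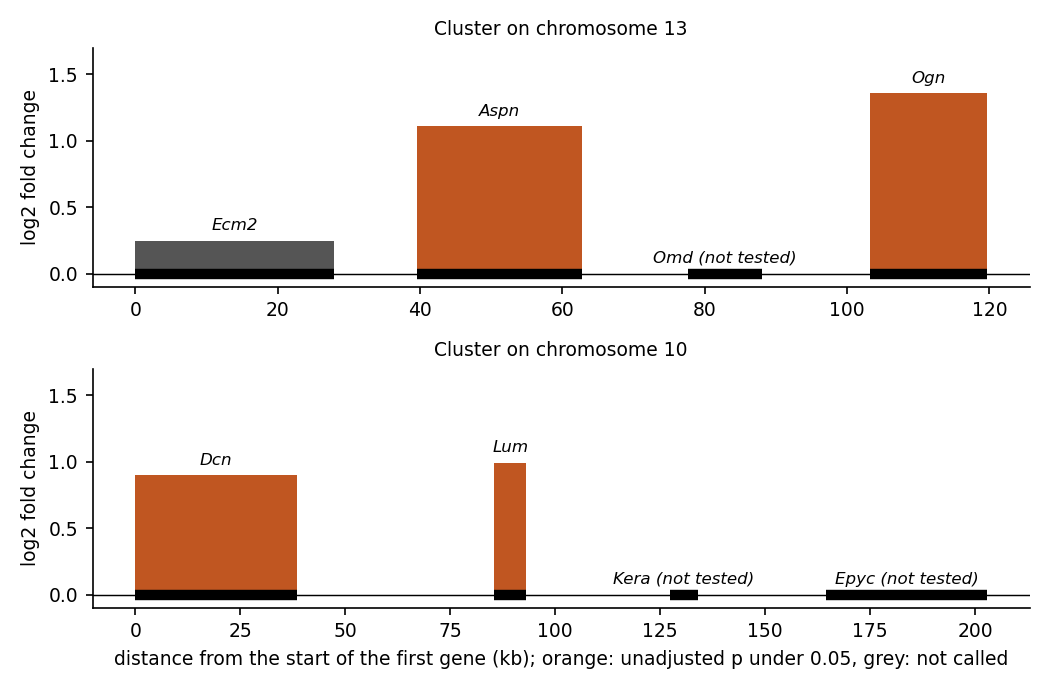
Log2 fold change (bar height) of the genes of the chromosome 13 and chromosome 10 clusters, drawn at their distance in kb from the start of the first gene, with the gene body as a black line. Bars in orange were called and the grey bar was not, so Aspn (1.11) and Ogn (1.36) stand on either side of the untested Omd, and Dcn (0.90) and Lum (0.99) are followed by the untested Kera and Epyc.

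The shares of Dcn, Prelp, Ogn, Aspn and Lum in the SLRP mRNA did not overlap between the groups. Those of Bgn, Ecm2, Omd and Podn overlapped. How many of all tested genes would lie without overlap on such a measure was not computed. Summed over the 9 genes, the level was 316 and 395 FPKM in Sox4f/f and 543 and 493 FPKM under the Sox4-MKO label, a ratio of means of 1.46 (exact permutation p = 0.333, two-sided, the smallest possible). Decorin made up 37.2% and 39.3% of this sum in Sox4f/f and 49.2% and 48.5% in the libraries labelled Sox4-MKO. The share of Prelp was 32.6% and 37.0% against 16.8% and 15.9%. In the controls these genes were thus nearly level, whereas under the Sox4-MKO label decorin stood well above Prelp.

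Set against 100 FPKM of decorin, Prelp had 87.5 and 94.2 FPKM in Sox4f/f and 34.1 and 32.8 FPKM under the Sox4-MKO label. This ratio within a library does not depend on how libraries are scaled to each other, and its groups were far apart beside their spread (exact permutation p = 0.333, the smallest possible). Osteoglycin had 10.2 and 10.5 FPKM per 100 FPKM of decorin against 14.6 and 15.0 FPKM, so its excess over decorin was also larger than the spread. Asporin (9.73 and 7.54 against 10.7 and 10.02) and Ecm2 (4.36 and 4.62 against 2.20 and 3.88) did not overlap either. Relative to decorin under the Sox4-MKO label, asporin was higher and Ecm2 lower. For both, the gap between the groups was smaller than the difference between the libraries labelled Sox4-MKO (exact permutation p = 0.333 each, the smallest possible). The share of all tested genes without overlap on this ratio was not computed. Biglycan (29.0 and 18.5 against 17.2 and 22.1), lumican (17.0 and 12.2 against 17.1 and 14.5) and podocan (10.5 and 6.85 against 7.26 and 7.30) overlapped between the groups on this measure.

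**Figure D4:**
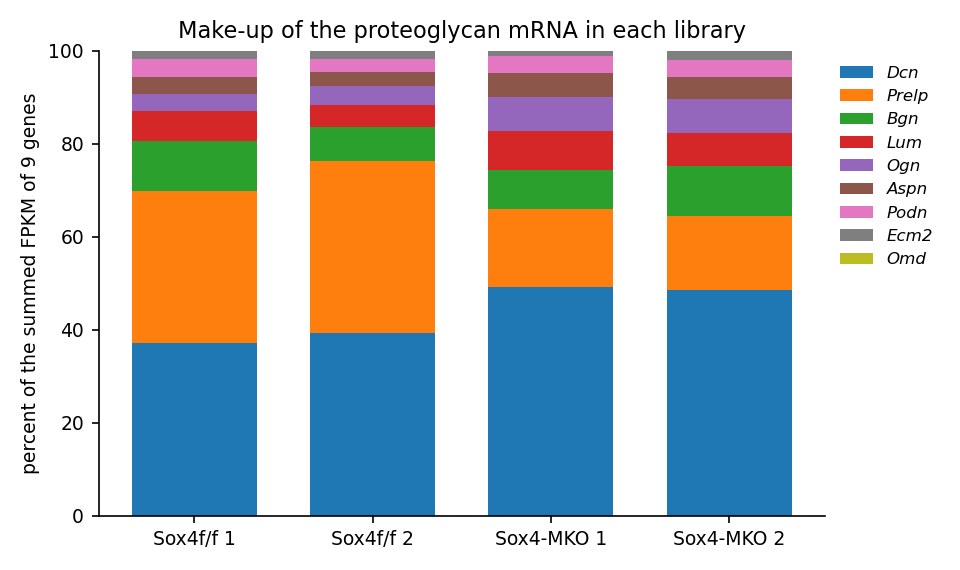
Percent of the summed FPKM of the 9 genes taken by each gene, 1 bar per library, from 0 to 100. Dcn (blue) takes 37.2% and 39.3% in Sox4f/f and 49.2% and 48.5% under the Sox4-MKO label, Prelp (orange) 32.6% and 37.0% against 16.8% and 15.9%, and Omd is too low to be seen.

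Among the 9 other SLRP genes, 2 passed the limit for testing and 0 were called in either direction, with a median log2 fold change of 0.14. Tsku, which encodes tsukushi, had 9.65 and 6.70 FPKM in Sox4f/f and 18.8 and 10.2 FPKM under the Sox4-MKO label (log2 fold change 0.72 ± 0.34 SE, adjusted p = 0.372, limma). It was called higher without Sox4-MKO mouse 2, when 1 gene of the list was called. Chadl, a chondroadherin relative, had 4.15 and 4.76 FPKM against 3.84 and 2.34 FPKM (-0.44 ± 0.25 SE, adjusted p = 0.438, limma), and was called lower without Sox4-MKO mouse 1. Fibromodulin (Fmod), a major SLRP of tendon and cartilage, had 0.225 and 0.379 FPKM against 0.850 and 0.378 FPKM. Chad was listed at 0 in all 4 libraries.

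The collagens to which SLRPs bind had a higher median than the SLRPs. Of 10 collagen genes tested, 9 were called higher and 1 lower, with a median log2 fold change of 0.99 against -0.05 over all tested genes. Col1a1, a chain of the main fibrillar collagen, had 32.0 and 30.1 FPKM in Sox4f/f and 79.3 and 79.9 FPKM under the Sox4-MKO label (1.33 ± 0.11 SE, adjusted p = 0.191, limma). Its replicates were almost identical and the groups far apart. Col1a2 (1.27), Col3a1 (1.38) and the fibril-surface collagen gene Col14a1 (1.28) had log2 fold changes close to that of Ogn. The type V and VI collagen genes Col5a1 (1.10), Col5a2 (0.57), Col6a1 (0.61), Col6a2 (0.61) and Col6a3 (0.89) were in the range of the other SLRPs. Col12a1, another fibril-surface collagen gene, was called lower, with 4.61 and 4.14 FPKM against 2.24 and 2.44 FPKM (-0.69 ± 0.18 SE, adjusted p = 0.227, limma). Without Sox4f/f mouse 2, 4 collagen genes were called higher, namely Col1a1, Col1a2, Col3a1 and Col5a1, and without Sox4f/f mouse 1 Col12a1 lost its call.

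A list of proteases that process or cleave SLRPs, which also held the procollagen enhancers Pcolce and Pcolce2, was mostly higher too. Of 9 tested, 7 were called higher and 0 lower, with a median log2 fold change of 0.78. Mmp3 (stromelysin 1), which can cleave decorin, had 3.12 and 3.45 FPKM in Sox4f/f and 12.0 and 13.7 FPKM under the Sox4-MKO label (1.69 ± 0.16 SE, adjusted p = 0.191, limma). Both of the latter were far above the controls. The other called genes were the aggrecanase gene Adamts5 (0.94), the procollagen C-proteinase enhancers Pcolce (0.94) and Pcolce2 (0.85), the gelatinase gene Mmp2 (0.78), the serine protease gene Htra1 (0.59) and Bmp1 (0.45), whose product removes the propeptide of biglycan. Without Sox4f/f mouse 1, 3 of these genes were called (Mmp3, Adamts5 and Mmp2), and Bmp1 lost its call without any 1 library.

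For the enzymes that build the linker and the chondroitin or dermatan sulfate chain, the median was close to that of all tested genes. Of 18 tested genes for the linker and the chondroitin or dermatan sulfate chain, 2 were called higher and 0 lower, and their median log2 fold change was -0.01. The called genes were Dse (0.98), whose product turns chondroitin into dermatan sulfate, and Chst12 (0.97), a chondroitin 4-sulfotransferase gene. Dse had 2.27 and 2.75 FPKM in Sox4f/f and 6.18 and 5.68 FPKM under the Sox4-MKO label (adjusted p = 0.196, limma), and Chst12 had means of 4.46 ± 0.476 and 9.68 ± 0.525 FPKM (SD, n = 2 each). In both genes the groups were well separated. B3gat3, the most abundant gene of the list, which completes the linker, had 28.7 and 29.8 FPKM against 19.9 and 24.6 FPKM (-0.38 ± 0.15 SE, adjusted p = 0.318, limma). Of 5 tested genes for keratan sulfate and tyrosine sulfation, B4galt4 (0.71) was called higher and Tpst2 (-0.77), a tyrosine sulfotransferase gene, lower. B4galt1, the most abundant of those not called, had a log2 fold change of -0.07. The keratan sulfate gene Chst1 (0.82 ± 0.42 SE, adjusted p = 0.402, limma) and the tyrosine sulfotransferase gene Tpst1 (0.10) were not called either. Chst1 had 14.6 and 5.89 FPKM in Sox4f/f and 19.3 and 15.6 FPKM under the Sox4-MKO label, without overlap. Across this list, which mixes genes for both processes, the median log2 fold change was 0.10. B4galt4 kept its call when Sox4-MKO mouse 1 was left out but not when any other library was, and Tpst2 lost its call without Sox4f/f mouse 1 or Sox4-MKO mouse 1. B3gat3 was called lower without Sox4-MKO mouse 2.

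Among growth factors and receptors that decorin or biglycan bind, 2 of 11 tested were called higher and 0 lower, with a median log2 fold change of 0.13. Egfr, a receptor to which decorin binds, had 3.12 and 1.62 FPKM in Sox4f/f and 5.19 and 4.71 FPKM under the Sox4-MKO label (0.86 ± 0.28 SE, adjusted p = 0.261, limma). Tlr4, a receptor of soluble biglycan, had 3.09 and 2.87 FPKM against 4.83 and 4.72 FPKM (0.54 ± 0.17 SE, adjusted p = 0.254, limma). Lrp1, the most abundant of the list and an endocytic receptor of decorin, had 53.7 and 52.8 FPKM in Sox4f/f and 59.9 and 49.0 FPKM under the Sox4-MKO label, and a log2 fold change of 0.02. Without either Sox4-MKO library 0 genes of this list were called higher, and without either Sox4f/f library 1 was.

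Proteoglycans outside the family were mixed, with 6 of 15 tested called higher, 1 lower and a median log2 fold change of 0.36. The glypican gene Gpc1 had 2.09 and 4.33 FPKM in Sox4f/f and 21.2 and 11.5 FPKM under the Sox4-MKO label (2.04 ± 0.40 SE, adjusted p = 0.206, limma). Ncan (0.91) was called higher as well, with 0.340 and 0.328 FPKM in Sox4f/f and 2.27 and 0.932 FPKM under the Sox4-MKO label. It passed the limit for testing only through the latter libraries, so it could only be called higher. Sdc1 (0.59), Gpc3 (0.55), Cspg4 (0.46) and Sdc2 (0.40) were also called higher, and Agrn (-0.66), a heparan sulfate proteoglycan gene of basement membranes, lower. These calls depended on single libraries, with 1 called higher without Sox4f/f mouse 1, 2 without Sox4f/f mouse 2 and 1 or 4 when Sox4-MKO mouse 1 or mouse 2, respectively, was dropped. Agrn kept its call without Sox4-MKO mouse 1 but not without any other library.

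Markers of several cell types moved with the SLRPs. All 8 fibroblast and adipocyte progenitor markers were called higher, with a median log2 fold change of 0.94. Their summed level was 174 and 175 FPKM in Sox4f/f and 322 and 301 FPKM under the Sox4-MKO label. Clec3b had 37.4 and 49.7 FPKM against 104 and 87.7 FPKM, and Pdgfra 4.22 and 5.07 FPKM against 7.17 and 8.44 FPKM. Dpp4 had 0.750 and 0.466 FPKM against 3.27 and 3.53 FPKM. It passed the limit for testing only through the libraries labelled Sox4-MKO, so it could only be called higher. None of the 8 markers was at 0 in any library, and 5 were called higher without Sox4f/f mouse 1. The part of these cells in the SLRP differences was not tested.

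Relative to the mean of these fibroblast markers, most SLRPs were near level or lower in the libraries labelled Sox4-MKO. This measure was added after the values were seen. Because all 8 markers were higher there, it lowers the difference of every member by construction. It cannot tell more cells from more transcript per cell. The log2 ratio of a member to that mean differed by 0.31 for the barely detected Omd, 0.27 for Ogn, 0.03 for Aspn, -0.12 for Lum and -0.24 for Dcn. In each of these the groups overlapped. It differed by -0.49 for Bgn, -0.46 for Podn and -0.86 for Ecm2 without overlap (exact permutation p = 0.333 each, the smallest possible). The share of all tested genes without overlap on this ratio was not computed. For Prelp the log2 ratio was 3.57 and 4.14 in Sox4f/f and 2.30 and 2.05 in the libraries labelled Sox4-MKO, a difference of -1.69 (exact permutation p = 0.333, the smallest possible).

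Skeletal muscle markers were higher by far more than any SLRP. Of 8 markers, 7 were called higher, and their summed level was 229 and 744 FPKM in controls against 13460 and 2631 FPKM under the Sox4-MKO label, with 4 of the 7 still called without Sox4f/f mouse 1. The part of muscle in the SLRP differences was not tested. Without Sox4-MKO mouse 1, 6 members were called higher (Ogn 1.30, Aspn 0.99, Dcn 0.82, Lum 0.80, Bgn 0.74 and Podn 0.57), and the summed muscle markers of the remaining Sox4-MKO library were 5.40 times the mean of the controls. Of 6 tendon and fascia markers, 1 was tested and called higher (Thbs4, 2.41), and the sum was 0.382 and 0.340 FPKM against 8.28 and 5.34 FPKM. Thbs4 had 0.148 and 0.0761 FPKM in Sox4f/f and 5.72 and 4.19 FPKM under the Sox4-MKO label. It was thus tested only through the latter libraries and could only be called higher. Tnmd and Mkx were at 0 in Sox4f/f mouse 2, and the part of tendon and fascia in the result was not tested.

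Of 5 macrophage markers, 3 were called higher (Mrc1 1.15, Cd68 0.86 and C1qa 0.81), with a summed level of 60.7 and 88.3 FPKM against 142 and 122 FPKM, with Cd68 losing its call without Sox4f/f mouse 1 or either Sox4-MKO mouse, and their part in the result was not tested. Brown adipocyte markers went the other way, with 3 of 7 called lower (Ucp1 -1.06, Cidea -0.86 and Cox7a1 -0.60) (of these, 1 without Sox4f/f mouse 1) and a sum of 6687 and 6535 FPKM against 4017 and 4723 FPKM. The rest of this list was not called. Dio2 (-1.30), Pparg (-0.32) and Plin1 (-0.15) lay below the controls, and Adipoq (-0.01) overlapped between the groups. Prelp was lower in the libraries labelled Sox4-MKO, and the part of brown adipocytes in that was not tested. Smooth muscle and pericyte markers (169 and 200 FPKM against 137 and 201 FPKM), endothelial markers (127 and 162 FPKM against 100 and 149 FPKM) and Schwann cell markers (44.7 and 47.7 FPKM against 59.4 and 40.9 FPKM) overlapped between the groups, with 0 called in either direction. Lymphoid, cartilage and bone, and mesothelial markers summed to at most 4.01, 2.48 and 1.11 FPKM, also with 0 called, and Bglap, Ibsp and Upk3b were listed at 0 in all 4 libraries.

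**Figure D5:**
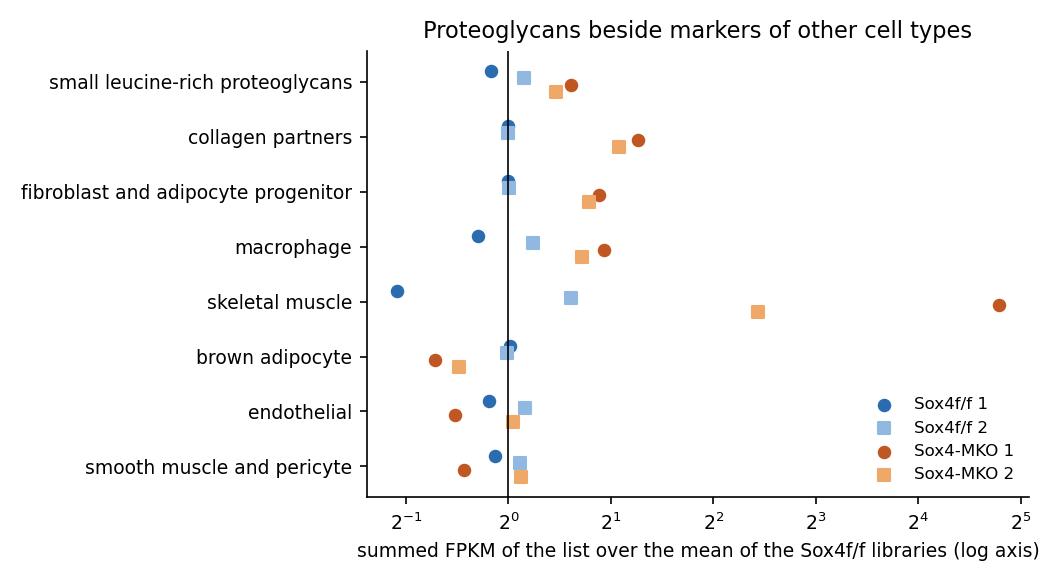
Summed FPKM of the SLRPs, their collagen partners and 6 marker lists in each library, divided by the mean of the Sox4f/f libraries (log axis). The SLRPs reach 1.53 and 1.38 in the libraries labelled Sox4-MKO, the fibroblast markers 1.85 and 1.73, the collagens 2.40 and 2.12 and the skeletal muscle markers 27.6 and 5.40, while the brown adipocyte markers stand at 0.608 and 0.714.

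The genes with the profile most like the mean of the tested SLRPs over the 4 libraries, by the Euclidean distance of centred log2(FPKM + 1), were Alox5 (0.0213), Srpx (0.0257), Gm36161 (0.0383), Ugt1a6b (0.0604) and Olfml3 (0.0661). Srpx, a secreted sushi-repeat protein gene, had 4.50 and 5.05 FPKM in Sox4f/f and 8.19 and 7.88 FPKM under the Sox4-MKO label. Alox5, the 5-lipoxygenase gene of leukocytes, had 0.592 and 0.805 FPKM against 1.77 and 1.63 FPKM. With 4 libraries these distances are a description. Among the members themselves, Podn lay nearest to the mean profile (0.257) and Prelp farthest from it (1.23).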

How the data were processed

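RNA was sequenced from brown fat of 2 Sox4f/f and 2 Sox4-MKO mice (genotypes and mouse numbers from the labels). The authors deposited 1 FPKM value per gene and library, in 55387 rows. The submitters' processing notes name Cufflinks 2.1.1, Cuffdiff and mm10, and the aligner and annotation are not given in the sources used here. The labels describe a column kit and a stranded library, the methods TRIzol and a TruSeq v2 library, so how strand was counted is unknown.

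Since FPKM are not counts, log2(FPKM + 1) was fitted with limma 3.58.1 (R 4.3.3), with genotype as the only term, eBayes with a trended prior, two-sided p-values and Benjamini-Hochberg adjustment over the 12877 genes whose averaged FPKM exceeded 1 in a genotype. A log2 fold change on this scale understates that of low genes. The code was tested on simulated data. The study states the filter and p under 0.05 but no test. Each library is from a separate mouse. The 14 alternatives were 3 scalings, 3 filters, pseudocounts of 0.1 and 0.01, a replicate block, limma without moderation and leaving out each library. Whether mouse numbers pair the samples was checked from the deviations from the group means.

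The members and gene lists were chosen with earlier results of these data known, so no set test was made. The lists were written by known function, 7 of the matrix and 11 of cell type markers. Named are all members, Sox4, in each matrix list the called genes and, where fewer than 3 were called, the most abundant up to 3, overlapping or neighbouring genes, and the 5 tested genes nearest to the mean profile of the members. The remaining tested genes of the keratan sulfate and tyrosine sulfation list, Chst1 and Tpst1, are named too. Marker genes named as examples were picked with their values known. Depth estimates rest on the value of 1 fragment in 6741 genes with a single transcript of at least 1500 nt, and are approximate. Figures were drawn with matplotlib 3.10.9.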

Additional observations from a re-analysis of the deposited data

How the results depend on the processing

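The count of 6 members called higher held under 12 of the 14 alternatives and was 4 in limma without moderation and without Sox4f/f mouse 2. Aspn, Lum and Ogn were called in all 14, Dcn and Podn in 13 and Bgn in 12, and 0 members had an adjusted p under 0.05 in any of them. Members called lower numbered 1 (Prelp) under a common median and 0 to 1 when each library was left out in turn. Leaving out libraries gave 445 to 1559 genes called higher, 404 to 1012 lower and 0 to 5 with an adjusted p under 0.05 among all tested genes. It gave 0 to 1 other SLRPs, 4 to 9 collagens, 0 to 1 growth factors and receptors, 0 to 1 keratan sulfate genes, 3 to 6 proteases and 1 to 4 other proteoglycans called higher. Without moderation, 553 genes were called higher, with 5 collagens, 4 proteases, 2 other proteoglycans and 0 keratan sulfate genes. Quantile normalization left 1 growth factor or receptor and 0 keratan sulfate genes, a limit of 5 FPKM left 0 and 0, and no limit left 1 growth factor or receptor. Over all tested genes the mouse numbers showed no pairing of the samples (correlation of same-numbered deviations -0.01). This is a single value over all genes and cannot exclude pairing in some of them. With the replicate block, 6 members were still called higher, as were 1 other SLRP, 2 keratan sulfate genes and 1 other proteoglycan. Leaving out libraries, the log2 fold change ranged from -0.040 to 0.54 for Ecm2 and from -0.20 to 0.055 for B4galt1, both turning without Sox4-MKO mouse 2, from -0.12 to 0.17 for Lrp1, turning without Sox4-MKO mouse 1, and from -0.32 to 0.71 for Sox4, turning without Sox4-MKO mouse 2 (-0.32) or Sox4f/f mouse 2 (-0.07). Of all called genes 51% were lower, against 36% with a common sum without mitochondrial genes and Ucp1, 62.8% without moderation and 34.9% without Sox4-MKO mouse 2. The cause of these changes was not tested, and some of these fits also differed in the number of libraries or genes they held. Depth limits Omd, with at most an estimated 27 fragments. With 2 mice per genotype, the spread of each group is poorly known.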
